A study of Arabidopsis thaliana with 30 samples.

Results

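The plastid isoprenoid route of Arabidopsis thaliana was followed in leaf 3 through 35 genes: the methylerythritol phosphate (MEP) pathway, the carotenoid pathway with its cleavage enzymes, and the tocopherol pathway. The genes were chosen by locus, as the rows of the deposited table whose identifier without its suffix belonged to a fixed list of 35 loci. All 35 loci were found, each with 1 row among the 30237 rows of the array (29920 loci), 22 with the suffix 0 and 13 with the suffix X. The members fall into 8 branches: 7 MEP steps, 3 isomerases and GGPP synthase, 5 steps from phytoene to lycopene, 2 accessory proteins, 6 cyclases and hydroxylases, 2 xanthophyll cycle enzymes, 5 carotenoid cleavage enzymes and 5 tocopherol enzymes.

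Leaf 3 of ecotype Col-0 was taken from seedlings grown in vitro at 22 °C on MS medium, under days of 16 h light and 8 h dark, and its total RNA was hybridised to AGRONOMICS1 arrays, 1 array per sample and 30 in all. A time course covered untreated leaves once a day from day 8 to day 13 after stratification. In a second experiment, seedlings on MS medium were either given norflurazon at day 8 or left without it, and leaf 3 was taken 24 h later (day 9) and 48 h later (day 10). Its leaves without norflurazon were transfer controls, and they are also called untreated below. Each of the 10 groups had 3 biological repeats, and the sources used here do not say whether a repeat was 1 plant or a pool, nor at what dose norflurazon was given. P-values therefore set a difference against the spread between such repeats.

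The MEP pathway makes isopentenyl diphosphate and its isomer in the plastid from pyruvate and glyceraldehyde phosphate, and DXS, its first enzyme, is known to limit its flux. GGPP synthase joins these units into the precursor of carotenoids and of the phytol tails of chlorophyll and tocopherol. Phytoene synthase (PSY) commits GGPP to carotenoids, a series of desaturations and isomerisations leads to lycopene, and lycopene is cyclised and hydroxylated to lutein and to the β-branch xanthophylls, which protect the photosynthetic apparatus and are precursors of abscisic acid. Tocopherols are lipid antioxidants built from homogentisate and phytyl diphosphate. Norflurazon is a herbicide that blocks phytoene desaturase, the enzyme encoded by PDS3, so that coloured carotenoids are no longer made and chloroplasts are photo-oxidised in the light.

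All values are log2 signals from RMA, which corrects background, quantile normalises the arrays and summarises the probes of a locus, so a difference of 1 is a doubling. A signal cannot be set against that of another probe set, since probes differ in affinity. Time course arrays had medians of 3.5 to 3.63 and those of the norflurazon experiment 2.81 to 2.88, and the experiments were fitted apart. Replicate arrays correlated at 0.976 or above in the time course, and at 0.992 or above with and without norflurazon. A gene is called changed where limma's moderated test gave a Benjamini-Hochberg adjusted p, over all 30237 rows, under 0.05. The SE and p of this test rest on the spread within groups, pooled over all groups of an experiment and moderated across rows. The labelled leaf tissue was borne out by its markers: all 6 mesophyll rows lay above the array median in every group, and of 6 rows for shoot meristem genes only that of STM did so, on day 8. Since these were whole leaves, fewer cells of a type and less RNA per cell cannot be told apart.

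From day 8 to day 13, 24 of the 35 genes rose and 1 fell, 71.4% of the members, beside 33.7% of all rows called (13.9% higher and 19.8% lower). The median change was 1.01 on the log2 scale over the members and 0.02 over all rows. The rises ranged from 0.51 on the log2 scale for VTE3 to 3.64 for BCH2, whose day 8 signal was near background, and the only called fall was that of the isopentenyl diphosphate isomerase gene IPP1. By branch, all 6 cyclases and hydroxylases, both xanthophyll cycle genes, 4 of 5 genes from phytoene to lycopene and 5 of 7 MEP genes rose, against 3 of 5 tocopherol genes, 2 of 5 cleavage genes and 1 of 2 accessory proteins. The day 8 and day 13 arrays did not overlap for 25 members that were higher (19.5% of all rows) and 2 that were lower (24% of all rows). An F test over all 6 days called 26 members, beside 32.4% of all rows.

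**Figure D1:**
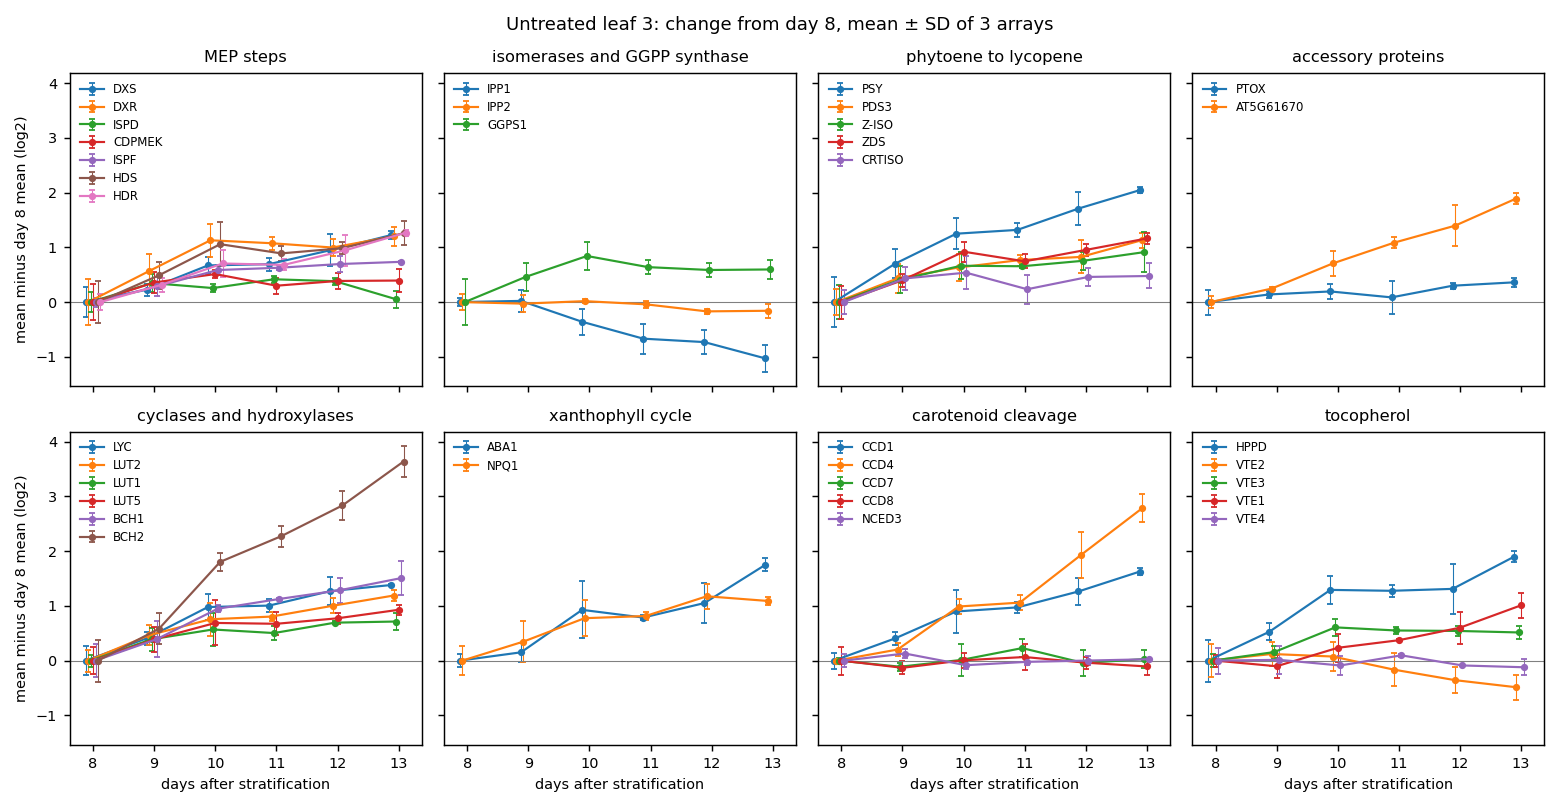
Change of each of the 35 genes from its day 8 mean (log2) against days after stratification in untreated leaf 3, in 8 panels by branch. Points are means and bars SD of 3 arrays. BCH2 reached 3.64 and CCD4 2.78 by day 13, while IPP1 ended at -1.03 and the cleavage genes CCD7, CCD8 and NCED3 stayed near 0.

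The 5 MEP genes that rose, DXS, DXR, ISPF, HDS and HDR, did so by 0.73 to 1.27. For DXS (AT4G15560), which makes deoxyxylulose phosphate, the arrays read 6.99, 6.45 and 6.61 on day 8, 7.0, 6.94 and 6.79 on day 9, 7.18, 7.40 and 7.47 on day 10, 7.41, 7.47 and 7.24 on day 11, 7.51, 7.42 and 7.96 on day 12, and 7.83, 7.92 and 7.97 on day 13. All day 13 arrays were above all day 8 arrays, and the rise was 1.22 ± 0.15 (SE), 2.34-fold, with an adjusted p of 5.1e-06. For DXR (AT5G62790), the reductoisomerase of the next step, the arrays read 7.36, 6.57 and 6.72 on day 8, 7.69, 7.57 and 7.10 on day 9, 7.69, 8.27 and 8.08 on day 10, 8.01, 8.04 and 7.83 on day 11, 7.85, 7.74 and 8.06 on day 12, and 8.25, 7.90 and 8.12 on day 13. The day 10 and day 13 arrays of DXR overlapped, and the rise from day 8 to day 13 was 1.2 ± 0.20 (adjusted p = 0.000131). HDS (AT5G60600) and HDR (AT4G34350), the last enzymes of the pathway, which release the isoprene units, rose by 1.26 ± 0.20 and 1.27 ± 0.14 (adjusted p = 9.9e-05 and 2.06e-06). ISPF (AT1G63970), the cyclase in the middle of the pathway, rose by 0.73 ± 0.10. The genes of the steps between DXR and ISPF did not pass the test: ISPD (AT2G02500), the nucleotide transferase gene, changed by 0.05 ± 0.11 and CDPMEK (AT2G26930), the kinase gene, by 0.39 ± 0.16 (adjusted p = 0.79 and 0.0665).

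The genes that handle the products of the MEP pathway were 1 fall, 1 rise and 1 without a call. IPP1 (AT5G16440), 1 of a pair of isopentenyl diphosphate isomerases, read 6.41, 6.32 and 6.26 on day 8, 6.54, 6.38 and 6.13 on day 9, 5.86, 5.81 and 6.23 on day 10, 5.97, 5.54 and 5.47 on day 11, 5.69, 5.34 and 5.76 on day 12, and 5.56, 5.07 and 5.27 on day 13. The day 13 arrays lay below every array of days 8 to 10, and IPP1 fell by 1.03 on the log2 scale (SE 0.17, adjusted p = 0.000107). Its paralog IPP2 (AT3G02780) changed by -0.16 ± 0.10 (adjusted p = 0.285), so the gap between the 2 paralogs widened by 0.87 from day 8 to day 13, with no overlap between the days. With 3 arrays against 3, an exact two-sided permutation test cannot go below p = 0.1, the value found (0.3 after Benjamini-Hochberg adjustment over 9 such comparisons of gene pairs). The paralogs are alike in sequence, and how far their probes cross-hybridise is not known. GGPS1 (AT4G36810), the main plastid GGPP synthase, read 7.06, 6.29 and 6.37 on day 8, 7.15, 7.22 and 6.75 on day 9, 7.13, 7.60 and 7.52 on day 10, 7.30, 7.28 and 7.06 on day 11, 7.27, 7.02 and 7.20 on day 12, and 7.36, 7.11 and 7.04 on day 13. Day 8 overlapped day 13 through replicate 1 of day 8. The rise of 0.60 ± 0.19 passed the test (adjusted p = 0.0202) but not without replicate 2 of day 8 (adjusted p = 0.107).

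Of the 5 genes from phytoene to lycopene, PSY had the largest rise. PSY (AT5G17230) read 6.66, 5.75 and 6.11 on day 8, 7.0, 7.06 and 6.58 on day 9, 7.14, 7.72 and 7.42 on day 10, 7.53, 7.60 and 7.35 on day 11, 7.77, 7.65 and 8.23 on day 12, and 8.22, 8.16 and 8.27 on day 13. All day 13 arrays lay above all arrays of days 8 to 11, and the rise was 2.04 ± 0.21, 4.12-fold (adjusted p = 6.97e-07). PDS3 (AT4G14210), whose product is the target of norflurazon, read 5.61, 5.23 and 5.18 on day 8, 5.89, 5.96 and 5.46 on day 9, 5.69, 6.11 and 6.11 on day 10, 6.12, 6.2 and 6.0 on day 11, 6.14, 5.88 and 6.48 on day 12, and 6.62, 6.38 and 6.41 on day 13. Day 8 and day 13 did not overlap, and the rise was 1.13 ± 0.17 (adjusted p = 5.39e-05). ZDS (AT3G04870), the ζ-carotene desaturase, rose by 1.16 ± 0.14 and Z-ISO (AT1G10830), the ζ-carotene isomerase, by 0.91 ± 0.19. CRTISO (AT1G06820), the prolycopene isomerase, changed by 0.48 ± 0.18 and narrowly missed the threshold (adjusted p = 0.0501), although its day 13 arrays all lay above those of day 8. Of the accessory proteins, PTOX (AT4G22260), the terminal oxidase that takes electrons from the plastoquinone used by the desaturases, changed by 0.36 ± 0.14 (adjusted p = 0.0588). AT5G61670, which has no symbol in the gene table used here, read 5.92, 5.77 and 5.71 on day 8, 6.05, 6.07 and 6.02 on day 9, 6.28, 6.5 and 6.74 on day 10, 6.86, 6.99 and 6.80 on day 11, 6.87, 7.12 and 7.60 on day 12, and 7.64, 7.80 and 7.63 on day 13. The AT5G61670 arrays of day 13 were above all earlier ones, with a rise of 1.89 ± 0.15 (adjusted p = 5.32e-08).

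Both cyclases and all 4 hydroxylases rose, by 0.71 to 3.64. LYC (AT3G10230), the lycopene β-cyclase, read 5.65, 5.20 and 5.19 on day 8, 5.79, 5.85 and 5.62 on day 9, 6.05, 6.39 and 6.53 on day 10, 6.21, 6.43 and 6.41 on day 11, 6.65, 6.35 and 6.85 on day 12, and 6.76, 6.72 and 6.71 on day 13, a rise of 1.38 ± 0.15 (adjusted p = 1.5e-06). LUT2 (AT5G57030), the ε-cyclase that opens the lutein branch, read 5.50, 5.37 and 5.11 on day 8, 5.81, 5.95 and 5.6 on day 9, 5.76, 6.13 and 6.35 on day 10, 6.15, 6.2 and 6.04 on day 11, 6.22, 6.27 and 6.48 on day 12, and 6.49, 6.42 and 6.63 on day 13, a rise of 1.19 ± 0.15 (adjusted p = 4.74e-06). For neither gene did day 8 overlap with day 13, and the difference between the rises of the cyclases was 0.19, with an exact permutation p of 0.3. LUT1 (AT3G53130) and LUT5 (AT1G31800), the cytochrome P450 hydroxylases used for lutein, rose by 0.71 ± 0.14 and 0.93 ± 0.18.

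BCH1 (AT4G25700) and BCH2 (AT5G52570) encode paralogous β-carotene hydroxylases. BCH1 read 7.0, 6.48 and 6.47 on day 8, 7.38, 7.02 and 6.72 on day 9, 7.67, 7.57 and 7.55 on day 10, 7.76, 7.77 and 7.79 on day 11, 7.93, 7.71 and 8.17 on day 12, and 8.45, 7.82 and 8.19 on day 13, a rise of 1.51 ± 0.19 (2.84-fold, adjusted p = 5.13e-06). BCH2 read 4.19, 3.42 and 3.76 on day 8, 4.59, 4.47 and 4.06 on day 9, 5.45, 5.57 and 5.77 on day 10, 5.92, 5.99 and 6.28 on day 11, 6.5, 6.45 and 6.93 on day 12, and 7.73, 7.17 and 7.37 on day 13. From day 10 on, no array of BCH2 overlapped with those of the day before, and the rise from day 8 was 3.64 ± 0.20 (adjusted p = 1.29e-09). Replicate 2 of day 8, at 3.42, lay below the time course's array medians, so the day 8 signal of BCH2 is near background. The gap between the 2 hydroxylases closed by 2.13, without overlap between day 8 and day 13 (exact permutation p = 0.1, the smallest possible). Cross-hybridisation between these paralogs is not known either.

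ABA1 (AT5G67030), the zeaxanthin epoxidase at the entry to abscisic acid synthesis, read 5.55, 5.41 and 5.31 on day 8, 5.6, 5.73 and 5.39 on day 9, 5.75, 6.63 and 6.67 on day 10, 6.19, 6.26 and 6.17 on day 11, 6.42, 6.13 and 6.87 on day 12, and 7.18, 7.28 and 7.05 on day 13. The day 13 arrays lay above all earlier ones, and the rise from day 8 was 1.75 ± 0.21 (adjusted p = 3.6e-06). NPQ1 (AT1G08550), the violaxanthin de-epoxidase that runs the reverse reaction of the xanthophyll cycle, rose by 1.09 ± 0.19. NCED3 (AT3G14440), which cleaves epoxycarotenoids towards abscisic acid, read 2.92, 2.98 and 3.15 on day 8, 3.25, 3.08 and 3.11 on day 9, 2.93, 3.01 and 2.86 on day 10, 2.97, 2.95 and 3.07 on day 11, 2.93, 3.06 and 3.07 on day 12, and 3.04, 3.01 and 3.08 on day 13. NCED3 and the strigolactone genes CCD7 (AT2G44990) and CCD8 (AT4G32810) had group means below the mean array median in all 10 groups, so for these 3 genes the arrays set only a bound, and no change could be seen at this signal.

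The other cleavage genes rose. CCD4 (AT4G19170), a plastoglobule dioxygenase that degrades carotenoids, read 3.61, 3.65 and 3.62 on day 8, 3.83, 3.95 and 3.71 on day 9, 4.52, 4.56 and 4.76 on day 10, 4.75, 4.52 and 4.78 on day 11, 5.56, 5.13 and 5.97 on day 12, and 6.30, 6.70 and 6.22 on day 13. CCD4 started close to the array median, held its level from day 10 to day 11 and was higher on each of the following days, with a rise of 2.78 ± 0.17 from day 8 to day 13 (adjusted p = 3.07e-09). CCD1 (AT3G63520), a cytosolic dioxygenase, read 5.92, 5.78 and 5.63 on day 8, 6.05, 6.24 and 6.26 on day 9, 6.25, 7.02 and 6.76 on day 10, 6.85, 6.67 and 6.73 on day 11, 6.80, 7.02 and 7.31 on day 12, and 7.34, 7.40 and 7.47 on day 13, a rise of 1.62 ± 0.16 (adjusted p = 5.8e-07).

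Of the tocopherol genes, 3 rose and 2 had no call. HPPD (AT1G06570), which makes homogentisate, read 4.63, 4.31 and 3.87 on day 8, 4.85, 4.92 and 4.62 on day 9, 5.26, 5.73 and 5.70 on day 10, 5.6, 5.61 and 5.42 on day 11, 5.19, 5.47 and 6.08 on day 12, and 6.06, 6.18 and 6.26 on day 13. No HPPD array of day 13 was as low as any of days 8 to 11, and HPPD rose by 1.89 ± 0.21 (3.72-fold, adjusted p = 1.42e-06). VTE1 (AT4G32770), the tocopherol cyclase, rose by 1.01 ± 0.16 and VTE3 (AT3G63410), the methyltransferase shared with plastoquinone synthesis, by 0.51 ± 0.11. VTE2 (AT2G18950), the homogentisate phytyltransferase that commits the route to tocopherol, changed by -0.49 ± 0.20 and missed the threshold (adjusted p = 0.0676), with all day 13 arrays below those of day 8. VTE4 (AT1G64970), the last methyltransferase, changed by -0.12 ± 0.14 (adjusted p = 0.572).

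Between consecutive days, most calls fell on the step from day 9 to day 10. From day 8 to day 9 no member passed limma's test (smallest adjusted p 0.124), beside 1.28% of all rows, although 18 members had an unadjusted p under 0.05, all of them higher on day 9, beside 12.3% of all rows at that threshold. Replicate 1 of day 8 was the highest day 8 array for most members given above (6.66 against 5.75 and 6.11 for PSY). Without it 3 members were called higher. From day 9 to day 10, 7 members rose and 0 fell, beside 7.38% of all rows (2.37% higher and 5.01% lower): BCH2 (1.22 ± 0.20), CCD4 (0.79 ± 0.17), ABA1 (0.78 ± 0.21), HPPD (0.77 ± 0.21), LYC (0.57 ± 0.15), ZDS (0.52 ± 0.14) and VTE3 (0.45 ± 0.11). The count was 16 after a second quantile normalization and 3 with only the arrays compared. It moved between 1 and 11 as single arrays were left out, with 1 without replicate 3 of day 9 or replicate 3 of day 10, 2 without replicate 2 of day 10, 3 without replicate 1 of day 9 and 11 without replicate 1 of day 10. From day 10 to day 11 limma called 0 members and 0% of all rows, and 2 members had an unadjusted p under 0.05, as did 7.13% of all rows. CCD4 alone was called from day 11 to day 12 (0.87 ± 0.17, beside 0.695% of all rows, 0.364% higher and 0.331% lower) and from day 12 to day 13 (0.85 ± 0.17, beside 1.54%, 0.681% higher and 0.857% lower). CCD4 lost these calls when single arrays were left out: no member was called from day 11 to day 12 without any 1 array of day 11 or without replicate 1 or 3 of day 12, or from day 12 to day 13 without replicate 1 or 2 of day 12 or replicate 2 of day 13, and 5 were without replicate 3 of day 12.

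The course was also split at day 10, a choice made after the daily values were known, and early and late members were not compared by a test. From day 8 to day 10, 25 members rose and 0 fell, beside 17.5% of all rows (6.47% higher and 11% lower). From day 10 to day 13, 11 rose and 1 fell, beside 18% of all rows (8.31% higher and 9.65% lower). As a description of means, the 24 genes that rose over the whole course had reached a median of 65.8% of their change by day 10. GGPS1 (141%) and VTE3 (118%) were highest on day 10, and DXR (93.9%) and HDS (84.0%) had little left to gain. VTE1 (23.1%), CCD4 (35.5%) and AT5G61670 (37.4%) made more than 50% of their change after day 10, and BCH2 (49.6%) changed about equally before and after it. Between day 10 and day 13, CCD4 rose by 1.79 ± 0.17, BCH2 by 1.83 ± 0.20, AT5G61670 by 1.18 ± 0.15 and VTE1 by 0.78 ± 0.16, whereas DXR changed by 0.07 ± 0.20 and GGPS1 by -0.25 ± 0.19. Of the 24, 21 had their highest mean on day 13 and 11 had a higher mean on every day than on the day before.

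**Figure D2:**
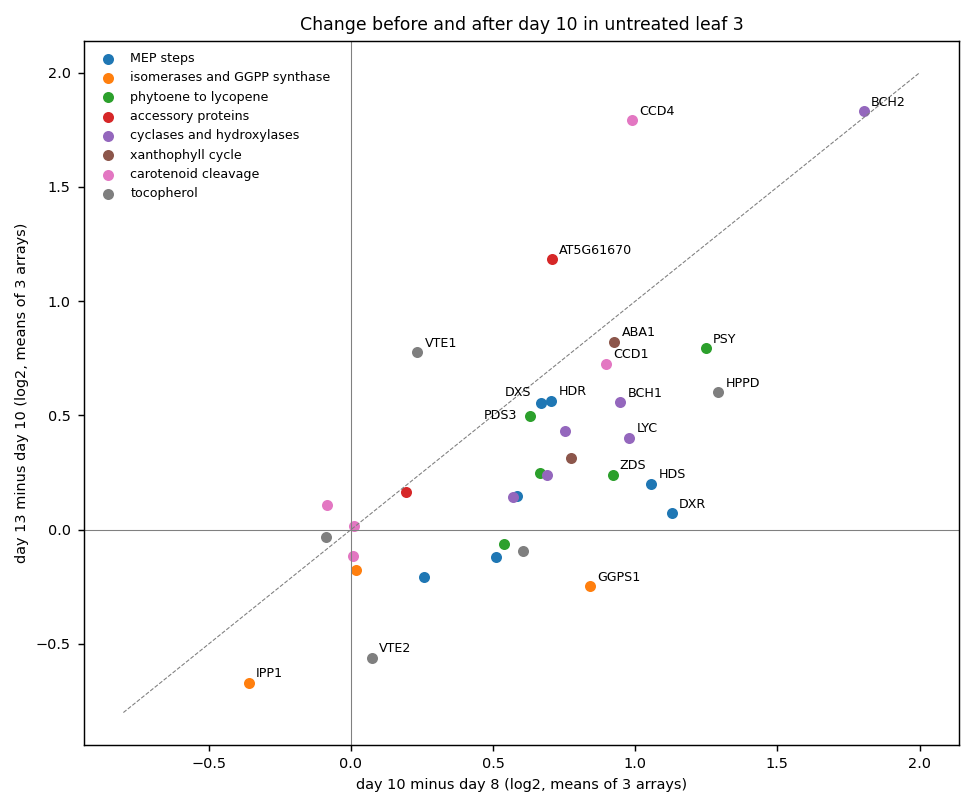
Change from day 10 to day 13 against change from day 8 to day 10 (log2, means of 3 arrays) for the 35 genes, coloured by branch. On the dashed line both changes are equal. CCD4, AT5G61670 and VTE1 lie above it, DXR, HDS, HPPD and PSY below it, and GGPS1 has a rise of 0.84 before day 10 and a change of -0.25 after it.

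Genes next to the pathway were read from lists of related loci. From day 8 to day 13, 13.9% of all rows were called higher and 19.8% lower. Of 28 plastid isoprenoid neighbours, 17 rose and 1 fell from day 8 to day 13, with a median of 0.67. Among the 28 were genes of plastoquinone, phylloquinone and chlorophyll tail synthesis, abscisic acid steps and plastoglobule proteins. FIB, a plastoglobule fibrillin, rose by 3.35 ± 0.25 and SPS2, a plastid solanesyl diphosphate synthase, by 1.97 ± 0.18. Of 12 genes of the cytosolic mevalonate and sterol route, which makes isoprene units outside the plastid, 2 rose and 6 fell, with a median of -0.33. ACAT2, the thiolase of the first mevalonate step, fell by 1.10 (SE 0.18), AT3G54250 by 0.81 (SE 0.16) and FPS2, a farnesyl diphosphate synthase, by 0.78 (SE 0.25). Of 7 regulators of carotenoid genes, 3 rose and 2 fell: the phytochrome-interacting factors PIL6 (1.92 ± 0.16), PIF4 (1.37 ± 0.16) and PIL5 (0.74 ± 0.14) rose. HY5, an activator of light-regulated genes, fell by 1.29 (SE 0.16) and RAP2.2, a factor that binds the PSY promoter, by 1.10 (SE 0.17).

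Cell type markers moved over the same days, between which 13.9% of all rows were called higher and 19.8% lower. From day 8 to day 13, 4 of 6 mesophyll rows, 5 of 5 vasculature rows and 5 of 5 guard cell rows rose. Over the same days 2 of 3 epidermis rows and 3 of 3 rows for dividing cells fell. On day 8 only 2 of the vasculature rows and 1 of the guard cell rows lay above the array median. The summed level of the dividing cell rows ran from 8.48 to 8.84 on day 8 and from 6.37 to 6.77 on day 13, and that of the mesophyll rows from 14.8 to 15.0 and from 15.0 to 15.9 (log2). From day 9 to day 10, the step with most member calls, 3 mesophyll, 4 vasculature and 1 guard cell rows rose and 1 dividing cell row fell. At this step 2.37% of all rows were called higher and 5.01% lower. The part of the markers in the changes of the 35 genes was not tested.

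After 24 h of norflurazon (day 9), 4 members were higher than in leaves without the herbicide, PSY, GGPS1, DXR and DXS, and 3 were lower, HPPD, CCD1 and AT5G61670, beside 7.43% of all rows called (3.6% higher and 3.83% lower). By branch, 2 of 7 MEP genes, 1 of 3 isomerases and GGPP synthase and 1 of 5 genes from phytoene to lycopene were higher. Of the 6 cyclases and hydroxylases 0 were called, with changes of -0.15 to 0.17, and the difference between branches was not tested. The median change was 0.01 over the members and -0.01 over all rows. The treated arrays lay wholly above the untreated ones for 9 members (11% of all rows) and wholly below for 6 (11.7% of all rows).

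PSY read 6.77, 6.67 and 6.54 in untreated leaves and 7.13, 7.48 and 7.36 in treated leaves, without overlap. The rise was 0.66 ± 0.12, 1.58-fold (adjusted p = 0.0053). GGPS1 read 6.91, 6.73 and 6.61 without and 7.34, 7.46 and 7.30 with norflurazon, also without overlap, and rose by 0.62 ± 0.10 (adjusted p = 0.00314). DXS read 7.0, 6.96 and 6.99 without and 7.30, 7.32 and 7.31 with norflurazon. These groups did not overlap, and the rise of DXS was 0.33 ± 0.07 (adjusted p = 0.0147). DXR read 7.79, 7.67 and 7.44 without and 8.02, 8.04 and 7.87 with norflurazon, again without overlap, a rise of 0.34 ± 0.09 (adjusted p = 0.0426). The later MEP genes ISPF, HDS and HDR changed by 0.12 ± 0.08, 0.22 ± 0.11 and 0.02 ± 0.08 and did not pass. Z-ISO, at 0.34 ± 0.09, narrowly missed the threshold (adjusted p = 0.0535).

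PDS3, the gene of the inhibited enzyme, read 6.53, 6.41 and 6.49 without and 6.40, 6.55 and 6.54 with norflurazon at day 9. The groups overlapped, with a difference of 0.02 (95% interval -0.14 to 0.19, adjusted p = 0.925). At day 10 PDS3 read 6.63, 6.55 and 6.41 without and 6.43, 6.44 and 6.42 with norflurazon, again overlapping (-0.10, interval -0.26 to 0.07, adjusted p = 0.625).

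CCD1 read 7.62, 7.58 and 7.67 without and 7.08, 7.23 and 7.27 with norflurazon at day 9, and fell by 0.43 on the log2 scale (SE 0.08, adjusted p = 0.00596). HPPD read 5.54, 5.67 and 5.80 without and 5.14, 5.20 and 5.38 with norflurazon, and fell by 0.43 (SE 0.09, adjusted p = 0.0144). AT5G61670 read 7.58, 7.53 and 7.78 without and 7.25, 7.23 and 7.39 with norflurazon, and fell by 0.34 (SE 0.09, adjusted p = 0.0436). In each of these genes all treated arrays lay below all untreated ones. The calls of PSY, GGPS1 and CCD1 held in all 12 alternative analyses. That of AT5G61670 was lost in 8 of them, that of DXR in 5, that of HPPD in 4 and that of DXS in 1, and the number of members called ran from 4 to 7 as single arrays were left out (4 without replicate 3 of the untreated leaves, or replicate 1 or 2 of the treated leaves).

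**Figure D3:**
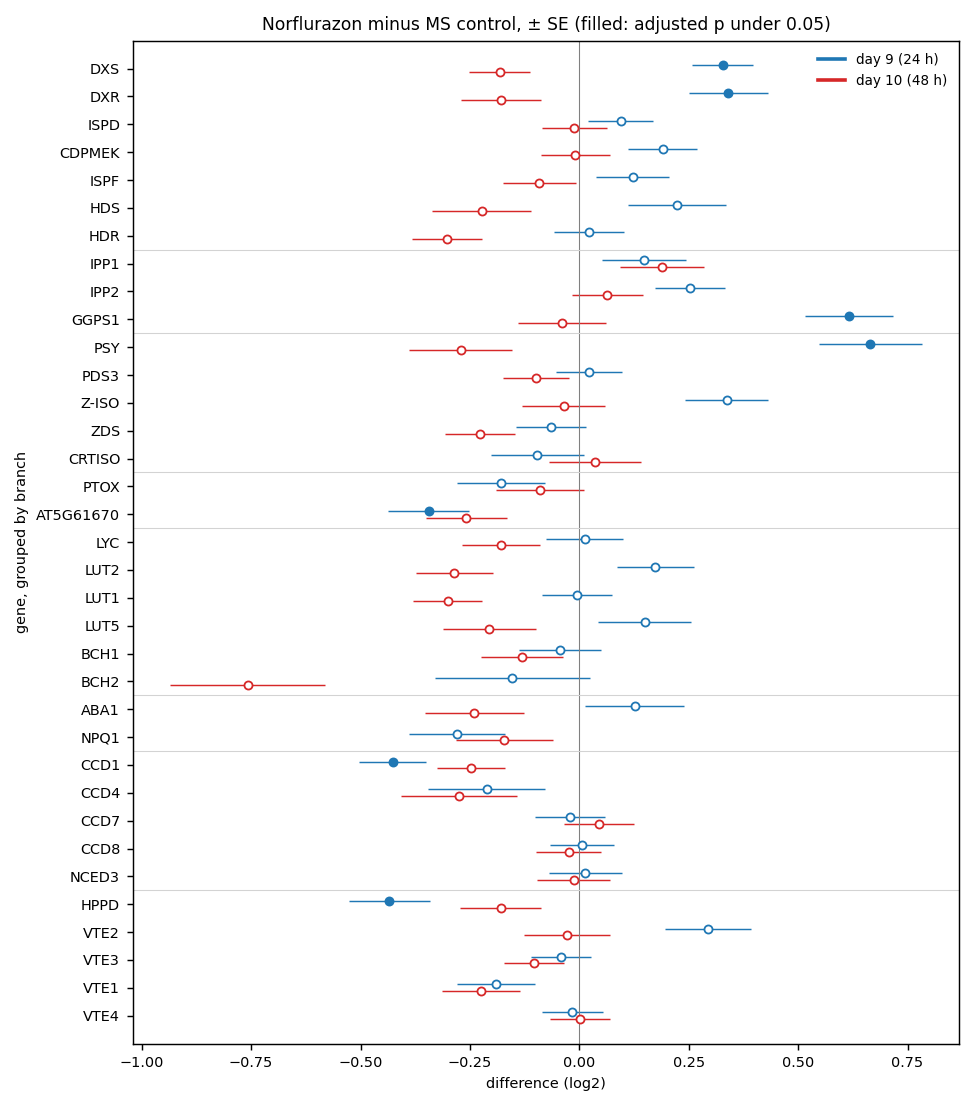
Norflurazon minus untreated (log2) at day 9 (blue) and day 10 (red) for the 35 genes, ordered and separated by branch. Points are differences of the means of 3 arrays, bars SE, and filled points have an adjusted p under 0.05. At day 9, 4 points are filled above 0 and 3 below it. At day 10 none is filled and 30 of 35 lie below 0.

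After 48 h no member passed limma's test (smallest adjusted p 0.0775, for BCH2), beside 0.771% of all rows. At an unadjusted p under 0.05 there were 10 members, all lower with norflurazon, beside 13.9% of all rows in either direction. Of the 35 members, 30 had a negative difference, against 49.1% of all rows, and the median was -0.17 over the members and 0.00 over all rows. The treated arrays lay wholly below the untreated ones for 15 members (8.96% of all rows) and wholly above for 0 (12.4% of all rows). All 7 MEP genes (-0.30 to -0.01) and all 6 cyclases and hydroxylases (-0.76 to -0.13) had negative differences, while both isopentenyl diphosphate isomerases were at 0.19 ± 0.10 (IPP1) and 0.06 ± 0.08 (IPP2). IPP1 read 6.69, 6.94 and 6.85 without and 7.05, 6.94 and 6.93 with norflurazon at day 9, and 6.95, 6.71 and 6.68 without and 6.85, 7.04 and 7.01 with it at day 10, overlapping on both days.

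BCH2 read 6.17, 5.96 and 5.96 without and 5.28, 5.33 and 5.21 with norflurazon at day 10, a difference of -0.76 ± 0.18. These groups did not overlap. At day 9, replicate 3 of the untreated leaves read 5.69 for BCH2 against 4.88 and 4.92, and the part of this array in the missed call was not tested. In a fit of the day 10 arrays alone 1 member was called, as after a second quantile normalization and among rows at or above the median row. The BCH2 readings with norflurazon at day 9 were 4.89, 4.99 and 5.15. Relative to BCH1, BCH2 was lower with norflurazon at day 10 by 0.63, without overlap (exact permutation p = 0.1, the smallest possible). BCH1 itself read 8.32, 8.24 and 8.05 without and 8.09, 7.98 and 8.15 with norflurazon, groups that overlapped. At day 9 BCH1 had read 8.49, 8.26 and 8.53 without and 8.35, 8.41 and 8.39 with it. LUT2 read 6.91, 6.76 and 6.72 without and 6.69, 6.37 and 6.49 with norflurazon (-0.29 ± 0.09), and LYC 7.35, 7.32 and 7.14 without and 7.12, 7.09 and 7.07 with it (-0.18 ± 0.09). Neither cyclase's groups overlapped, and neither passed the test (adjusted p = 0.161 and 0.403). At day 9 LUT2 had read 6.24, 6.19 and 6.16 without and 6.35, 6.44 and 6.32 with norflurazon, and LYC 7.08, 7.17 and 7.20 without and 7.01, 7.32 and 7.16 with it, with differences of 0.17 ± 0.09 and 0.01 ± 0.09. ABA1 read 6.27, 6.22 and 5.88 without and 6.04, 5.86 and 5.76 with norflurazon, which overlapped, as did the day 9 readings of ABA1, 5.95, 5.88 and 5.75 without and 5.91, 6.09 and 5.96 with it. CCD4 read 4.76, 4.48 and 4.44 without and 4.32, 4.33 and 4.20 with norflurazon, without overlap (-0.28 ± 0.13, adjusted p = 0.387). The day 9 readings of CCD4, 4.20, 4.14 and 4.61 without and 4.09, 3.94 and 4.27 with norflurazon, overlapped. NCED3 stayed below the array median in both, at 2.37, 2.33 and 2.49 without and 2.46, 2.29 and 2.40 with norflurazon at day 10, after 2.25, 2.38 and 2.53 without and 2.41, 2.41 and 2.40 with it at day 9.

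**Figure D4:**
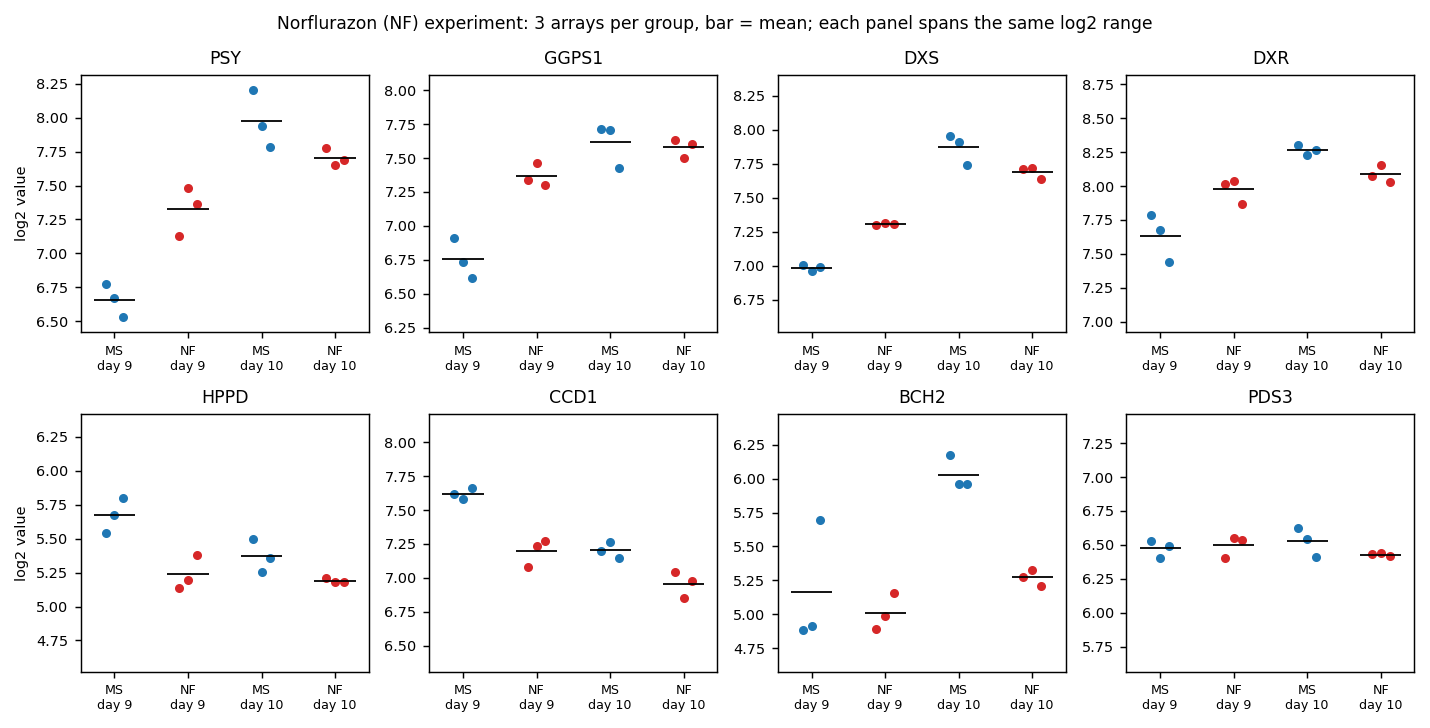
log2 values of the 12 arrays of the norflurazon experiment for PSY, GGPS1, DXS, DXR, HPPD, CCD1, BCH2 and PDS3, in untreated (MS, blue) and treated (NF, red) leaves at days 9 and 10. Points are arrays, bars are group means, and every panel spans the same log2 range. PSY, DXS and DXR are higher with norflurazon at day 9 and lower at day 10, where no difference was called. PDS3 lies between 6.40 and 6.63 on all arrays.

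The effect on PSY, GGPS1 and DXS differed between the days. The effect at day 10 minus that at day 9 was -0.94 ± 0.17 for PSY, -0.66 ± 0.14 for GGPS1 and -0.51 ± 0.10 for DXS (adjusted p = 0.0147, 0.0373 and 0.0226), the 3 members called in the test of this interaction, beside 1.95% of all rows (1.26% higher and 0.688% lower). DXR had a difference of the same size, -0.52 ± 0.13, that did not pass (adjusted p = 0.067). At an unadjusted p under 0.05 there were 13 members, all with a lower effect at day 10, beside 13.7% of all rows in either direction. Marker rows of cell types were read for the same difference, which was below 0 for 48.8% of all rows. Of 6 mesophyll rows 5 had a lower effect at day 10, with a median of -0.77 and a lowest value of -1.70, and 1, LHCA1, was called lower. So did 3 of 3 dividing cell rows (median -0.23), 4 of 5 vasculature rows (-0.08) and 3 of 5 guard cell rows (-0.27), without a call. Of 3 epidermis rows 1 did (median 0.09). Their part in it was not tested. PSY kept its call in all 17 alternative analyses, while DXS lost its own in 6 and GGPS1 in 11. The number called ran from 1 to 4 as single arrays were left out, and was 1 without replicate 2 of the untreated leaves of day 9, replicate 1 or 2 of the untreated leaves of day 10, replicate 1 or 3 of the treated leaves of day 9, or replicate 3 of the treated leaves of day 10.

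The same difference can be read along the days. In untreated leaves of this experiment, 7 members rose and 2 fell from day 9 to day 10, beside 11.5% of all rows (5.18% higher and 6.31% lower). PSY read 8.20, 7.94 and 7.78 on day 10 in these leaves, a rise of 1.32 ± 0.12 from day 9. Over the same step 4 of 6 mesophyll rows (median change 1.15), 2 of 3 dividing cell rows and 2 of 5 guard cell rows rose, and their part in the members' changes was not tested. GGPS1, at 7.72, 7.71 and 7.43, rose by 0.87 ± 0.10. DXS, at 7.96, 7.91 and 7.74, rose by 0.89 ± 0.07. DXR, LUT2, BCH2 and VTE2 also rose, by 0.63 ± 0.09, 0.60 ± 0.09, 0.87 ± 0.18 and 0.44 ± 0.10. With norflurazon, DXS alone was called, rising by 0.38 ± 0.07 to 7.71, 7.72 and 7.64, beside 1.96% of all rows (1.65% higher and 0.314% lower). This call was lost when single arrays were left out, namely any of the treated arrays of day 9 or replicate 1 or 2 of day 10. The treated leaves read 7.78, 7.65 and 7.69 for PSY on day 10, a change of 0.38 ± 0.12 from day 9, and 7.63, 7.5 and 7.60 for GGPS1, a change of 0.21 ± 0.10. On day 10 the treated arrays of PSY and DXS lay just below the untreated ones, and those of GGPS1 among them.

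NPQ1 and CCD1 were the 2 members that fell from day 9 to day 10 in the untreated leaves, by 0.49 (SE 0.11) and 0.42 (SE 0.08). Over the same days of the time course, NPQ1 changed by 0.43 ± 0.19 and CCD1 by 0.49 ± 0.16, neither called. HPPD and AT5G61670 likewise read -0.30 ± 0.09 and -0.15 ± 0.09 in the untreated leaves, against 0.77 ± 0.21 and 0.46 ± 0.15 in the time course. The untreated leaves of the norflurazon experiment were transfer controls, and the experiments were fitted apart. Whether they were normalised together was not stated, and this difference between them was not tested. CCD1 with norflurazon read 7.04, 6.85 and 6.98 on day 10, against 7.20, 7.27 and 7.15 without. On that day HPPD read 5.21, 5.18 and 5.18 with and 5.50, 5.26 and 5.35 without norflurazon, AT5G61670 7.28, 7.25 and 7.13 with and 7.62, 7.43 and 7.39 without, and DXR 8.07, 8.15 and 8.03 with and 8.30, 8.23 and 8.26 without. In all 4 genes the treated arrays lay below the untreated ones, and none of these differences passed the test.

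**Figure D5:**
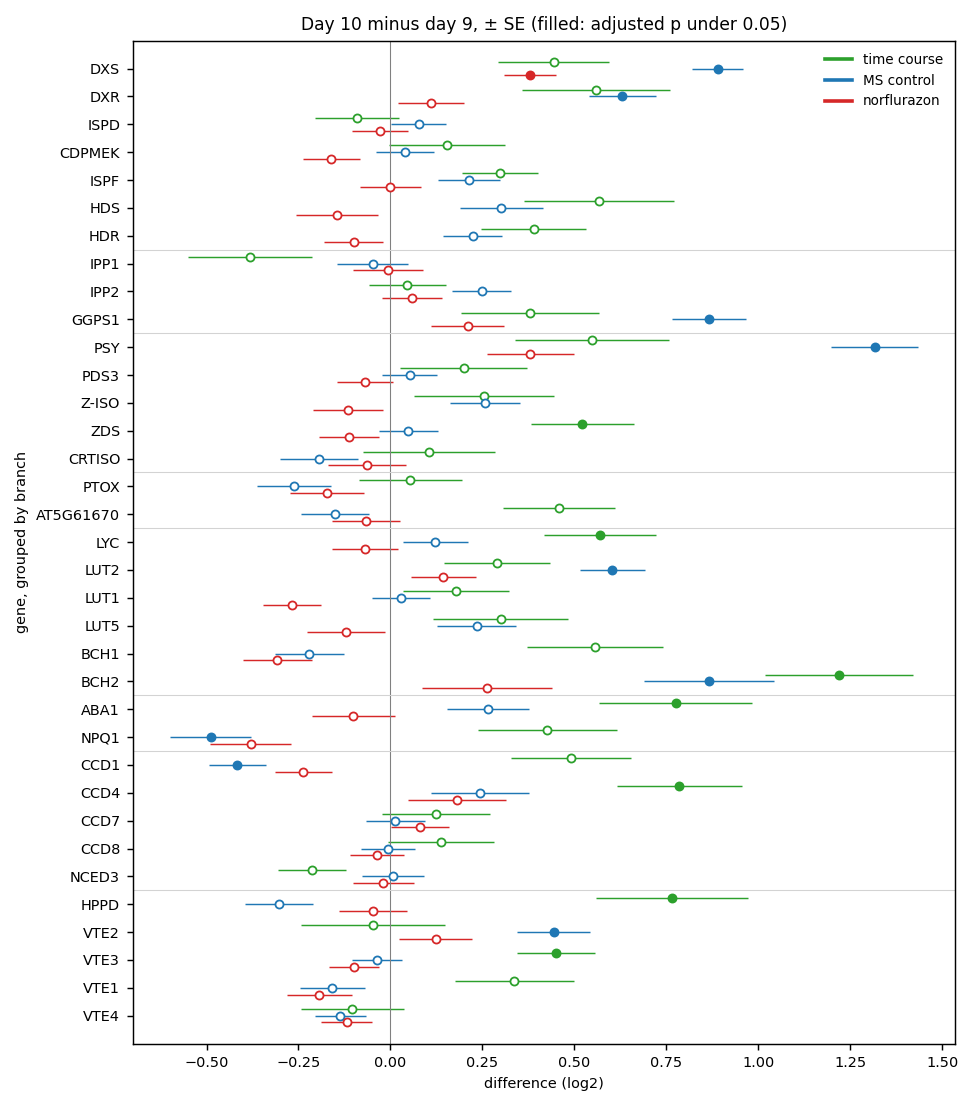
Day 10 minus day 9 (log2) for the 35 genes in the untreated time course (green), in the untreated leaves of the norflurazon experiment (blue) and with norflurazon (red). Points are differences of the means of 3 arrays, bars SE, filled where the adjusted p was under 0.05. PSY, GGPS1 and DXS lie at 0.87 to 1.32 in the blue series and at 0.21 to 0.38 in the red series, and NPQ1 and CCD1 lie below 0 in the blue series and above 0 in the green.

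Of the plastid isoprenoid neighbours, 1 rose and 3 fell with norflurazon at day 9, beside 3.6% of all rows called higher and 3.83% lower. AT1G74470, the geranylgeranyl reductase that makes phytol tails, rose by 0.44 ± 0.10. TAT7, a tyrosine aminotransferase, fell by 0.78 (SE 0.08), AT5G06130 by 0.44 (SE 0.08) and SPS1, a solanesyl diphosphate synthase, by 0.40 (SE 0.11). At day 10 SPS2 fell by 0.49 (SE 0.08), the only 1 of the 28 that was called, beside 0.771% of all rows. Of the 12 mevalonate and sterol genes, HMGS, the hydroxymethylglutaryl-CoA synthase, rose by 0.50 ± 0.12 at day 9, and none was called at day 10. Among the 7 regulators HY5 fell by 0.73 (SE 0.12) at day 9 and differed by 0.21 ± 0.12 at day 10, and its effect at day 10 minus day 9 was 0.94 ± 0.17 (adjusted p = 0.0152).

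Markers of other cell states also moved at day 9, when 3.6% of all rows were called higher and 3.83% lower. Of 3 rows for dividing cells 2 were higher with norflurazon, and their summed level ran from 9.29 to 9.62, against 8.36 to 8.84 without. Of 6 mesophyll rows 2 were higher (summed 15.3 to 15.5, against 15.2 to 15.4 without), and 1 of 5 vasculature rows was lower. At day 10 no marker row was called, beside 0.771% of all rows. For 8.96% of all rows the treated arrays of day 10 lay wholly below the untreated ones, and for 12.4% wholly above. A negative difference at day 10 was found for 49.1% of all rows. All 6 mesophyll rows had negative differences (median -0.29, 4 without overlap), as did all 5 guard cell rows (median -0.36, 4 without overlap) and all 5 vasculature rows (median -0.08, 1 without overlap), the same direction as 30 of the 35 members. The mesophyll rows summed to 15.53 to 15.61 with and 15.67 to 15.78 without norflurazon. The guard cell rows summed to 5.95 to 6.88 with and 7.08 to 7.27 without it. Of the 5 guard cell rows, 3 lay above the array median with norflurazon and 4 without, and of the 5 vasculature rows 3 in both. All 3 dividing cell rows had positive differences (3 without overlap) and summed to 9.5 to 9.64 with and 9.13 to 9.35 without norflurazon. The 3 epidermis rows were all positive too (median 0.23, 2 without overlap). They summed to 11.30 to 11.58 with and 11.14 to 11.24 without norflurazon. The part of these markers in the members' differences at day 9 and day 10 was not tested.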

How the data were processed

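The submitters' processing notes name RMA and TAIR9 for the log2 values that the authors deposited; no RMA version or probe definition was found in the labels. All 30237 rows were tested. The time course (18 arrays) and the norflurazon experiment (12 arrays) were fitted apart with limma 3.58.1 in R 4.3.3, with 1 coefficient per group (12 and 8 residual degrees of freedom), and calls need a Benjamini-Hochberg adjusted p under 0.05. The fit was tested on simulated data. Summaries used Python 3.11.15 and SciPy 1.17.1. Precision is limited by 3 arrays a group.

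The members, lists and named genes were chosen with earlier results of these data known. Values on each array are given for DXS, PSY, PDS3, LYC, LUT2, BCH1, BCH2, ABA1, NCED3 and the members with the 4 largest called rises or falls in each main comparison; related genes are the up to 3 largest called per list. The split at day 10 and the comparisons of gene pairs were added after seeing the data. Names came from a TAIR10.1 gene table (35 of 35 matched). No sequence was used. Alternatives were a second quantile normalization, median centring, a filter on dim rows, only the arrays compared, an intensity trend and a replicate block. Each array of the groups compared was also left out in turn.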

Additional observations from a re-analysis of the deposited data

Results flagged for a closer look

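The norflurazon effect differed between the 2 days, by a test of the difference itself, for 3 members. The effect at day 10 minus the effect at day 9 was -0.94 for PSY, -0.66 for GGPS1 and -0.51 for DXS on the log2 scale. No other member passed that test. With 3 arrays per group, single arrays were not screened for outliers.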

How the results depend on the processing

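Reversal was followed only for the members called from day 8 to day 13 (25), with norflurazon at day 9 (7) and in the interaction (3), and none of these reversed under the alternatives run. Of the 25 members called from day 8 to day 13, 24 kept the call throughout (GGPS1 lost it in 5 of 12 alternatives), and the count ran from 24 to 28 as single arrays were left out. From day 9 to day 10, 7 members were called, but 16 after a second quantile normalization, 4 after median centring, 11 among rows at or above the median row and 3 with only the arrays compared, and from 1 to 11 as single arrays were left out. From day 8 to day 9 the count ran from 0 to 3 with arrays left out. From day 11 to day 12 it was 0 with only the arrays compared and 0 to 1 with arrays left out. From day 12 to day 13 it was 2 after quantile normalization or the filter, 0 with only the arrays compared, and 0 to 5 with arrays left out. For norflurazon at day 9 it was 3 with only the arrays compared and 4 to 7 with arrays left out. At day 10 it was 1, in place of 0, after quantile normalization, with the filter and with only the arrays compared. It was 0 with any 1 of the day 10 arrays left out, and the day 9 arrays were not left out for this comparison. The interaction gave 5 after quantile normalization and 1 to 4 with arrays left out. From day 9 to day 10 with norflurazon it was 0 to 1. The causes were not tested, beyond the fewer arrays or rows these settings use. The labels state no pairing by replicate number. Over all rows, same-numbered arrays deviated together with r of -0.25 to 0.17 (time course) and -0.065 to 0.089 (norflurazon), which cannot exclude pairing for some genes. With replicate as a block, the counts were 26 (day 8 to 13), 6 (day 9 to 10), 6 (norflurazon at day 9) and 3 (interaction), and no other count moved by over 1.5 times. Genes near or below the array median (NCED3, CCD7, CCD8, and BCH2 and CCD4 at day 8) are limited by background signal.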
